A study of Rattus norvegicus with 9 samples.

Results

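Alveolar type 1 cell genes were taken as every probe set annotated to Ager, Pdpn or Cav1, and this gave 3 probe sets, 1 for each gene, of 8799 in the values table. No probe set shared by several genes held any of the 3. They were measured in lung tissue of rats on 9 oligonucleotide arrays, in a layout of breathing (mechanical ventilation or spontaneous breathing) by inhaled oxygen (100% or 21%). The 4 groups were mechanical ventilation with 100% oxygen, mechanical ventilation with 21% oxygen, spontaneous breathing with 100% oxygen and spontaneous breathing with 21% oxygen, called mechanical 100%, mechanical 21%, spontaneous 100% and spontaneous 21% here. Every group had a letter a and a letter b sample. Mechanical 100% letter b was hybridised to 2 arrays, whose mean stands for 1 sample, so 8 samples entered the tests. For strain, age, duration of exposure and ventilator settings, the sources used here give nothing. The labels do not tie the letters to different rats, and a p-value here reflects the spread of these 8 samples, which could be technical.

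Alveolar type 1 cells are the thin, flat epithelial cells that cover most of the gas-exchange surface of the lung. They lie against the capillary endothelium, arise from type 2 cells after injury and are stretched with each breath. Ager encodes the receptor for advanced glycation end products (RAGE), a membrane receptor that is far more abundant in lung than in other tissues and sits on the basal side of type 1 cells. Pdpn encodes podoplanin (T1-alpha), a mucin-like glycoprotein of their apical membrane that binds the actin linker ezrin and is also made by lymphatic endothelium and mesothelium. Cav1 encodes caveolin-1, the scaffold protein of caveolae, which are membrane pits abundant in type 1 cells and in capillary endothelium.

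Of the 3 genes, only Ager passed a test. Ager was lower with 100% oxygen and lower again where mechanical ventilation and 100% oxygen were combined. Pdpn and Cav1 passed the test in none of the 9 comparisons run. No difference between members passed after adjustment, in tests with too few samples for a pair alone to pass. In bulk tissue, fewer cells of a type and less RNA per cell cannot be told apart.

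The start regions of the genes are shown so that the sequence ahead of Ager, the member with called changes, can be read beside those of the other 2. Each window runs from 250 bases before to 50 bases after the start of the gene as RefSeq gives it on the rat build GRCr8, and is written 5′ to 3′ along the gene. Capitals mark matches, on either strand, to 4 of the 8 letter patterns searched: the GC box GGGCGG, the TATA box TATAAA, the CCAAT box CCAAT and the hypoxia response core ACGTG. Ager lies on the minus strand with its window at chr20:4155636-4155935, Pdpn on the minus strand at chr5:160918910-160919209, and Cav1 on the plus strand at chr4:46606288-46606587.
Ager: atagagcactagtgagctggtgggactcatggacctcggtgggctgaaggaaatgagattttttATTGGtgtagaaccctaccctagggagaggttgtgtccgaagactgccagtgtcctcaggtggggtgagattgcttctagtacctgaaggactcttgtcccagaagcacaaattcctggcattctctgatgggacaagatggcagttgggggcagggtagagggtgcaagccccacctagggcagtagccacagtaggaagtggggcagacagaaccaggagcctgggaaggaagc
Pdpn: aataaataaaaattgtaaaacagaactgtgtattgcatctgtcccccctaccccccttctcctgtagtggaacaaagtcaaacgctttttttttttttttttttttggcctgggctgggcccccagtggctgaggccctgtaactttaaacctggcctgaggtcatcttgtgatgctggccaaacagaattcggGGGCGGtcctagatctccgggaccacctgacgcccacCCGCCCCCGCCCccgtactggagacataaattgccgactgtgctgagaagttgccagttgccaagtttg
Cav1: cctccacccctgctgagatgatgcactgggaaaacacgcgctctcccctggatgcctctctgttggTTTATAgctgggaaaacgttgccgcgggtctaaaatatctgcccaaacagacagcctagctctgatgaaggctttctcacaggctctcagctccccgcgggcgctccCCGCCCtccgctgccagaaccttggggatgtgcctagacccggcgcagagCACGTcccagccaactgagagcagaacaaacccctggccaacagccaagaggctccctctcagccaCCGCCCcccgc
The Ager window held 1 CCAAT box and had a GC content of 54.3%. The Pdpn window held 3 GC boxes at a GC content of 51.0%. The Cav1 window was the richest of the 3 in G and C, at 61.7%, and held 2 GC boxes, 1 TATA box and 1 hypoxia response core. Over the 33365 promoter windows of the same table, whose median GC content was 51.7%, a GC box was found in 33.1%, a TATA box in 14.2%, a CCAAT box in 37.5% and a hypoxia response core in 19.3%. No match in these windows was found for the NKX2-1 core CAAGTG (in 14.0% of all windows), the forkhead core TGTTTAC (3.8%), the AP-1 site TGANTCA (7.3%) or the antioxidant response element TGACNNNGC (12.1%). A match is a description of the letters only.

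The deposited values are probe set intensities on a linear scale, whose 2% trimmed means lay between 800.5 and 801.1 on the 9 arrays. Lung markers were bright: Scgb1a1, the secretory protein of airway club cells, measured between 6763 and 10788 in the 8 samples, and Sftpc, a surfactant protein of type 2 cells, between 3543 and 14817. The brightest signals were lower on the mechanical 100% arrays, whose 99th percentile lay between 7111 and 8352, against 9934 to 14547 on the other arrays. Of the 9 descriptions, 4 carry a line for a lot batch, with no lot given: both spontaneous 21% arrays, mechanical 100% letter a and 1 of the 2 arrays of mechanical 100% letter b. All arrays of mechanical 21% and spontaneous 100% lack it.

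Ager measured 4999 in letter a and 6094 in letter b of mechanical 100%. It measured 9983 and 10954 in mechanical 21%, 8370 and 10084 in spontaneous 100%, and 14892 and 12468 in spontaneous 21%. Both mechanical 100% samples lay below the other 6 samples, and both spontaneous 21% samples lay above them. The means were 5546 ± 774 in mechanical 100%, 10468 ± 687 in mechanical 21%, 9227 ± 1211 in spontaneous 100% and 13680 ± 1714 in spontaneous 21% (SD, n = 2 each). Of the neighbours in the order of levels, mechanical 100% against spontaneous 100% passed the test, while mechanical 21% against spontaneous 100% and mechanical 21% against spontaneous 21% did not. The 2 arrays of mechanical 100% letter b gave 6946 and 5242, a ratio of 1.33, and so lay further apart than the 2 samples of that group.

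Pdpn measured 4270 and 5453 in mechanical 100%, 4855 and 4387 in mechanical 21%, 5338 and 6134 in spontaneous 100%, and 5453 and 5724 in spontaneous 21%. The means were 4861 ± 836 in mechanical 100%, 4621 ± 331 in mechanical 21%, 5736 ± 562 in spontaneous 100% and 5588 ± 192 in spontaneous 21% (SD, n = 2 each). The mechanically ventilated samples lay between 4270 and 5453 and the spontaneously breathing samples between 5338 and 6134, with a narrow overlap. The 2 arrays of mechanical 100% letter b differed by a ratio of 1.22, at 5982 and 4923. No pair of neighbouring groups in the order of Pdpn levels passed the test.

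Cav1 measured 4332 and 3765 in mechanical 100%, 3478 and 3885 in mechanical 21%, 3475 and 3187 in spontaneous 100%, and 5645 and 3875 in spontaneous 21%. The means were 4048 ± 400 in mechanical 100%, 3681 ± 288 in mechanical 21%, 3331 ± 204 in spontaneous 100% and 4760 ± 1251 in spontaneous 21% (SD, n = 2 each). The spontaneous 21% samples differed from each other more than any other pair of this gene, with letter a the highest of the 8 samples and letter b inside the range of the mechanical 21% and mechanical 100% samples. The repeated arrays of mechanical 100% letter b gave 3810 and 3721, a ratio of 1.02. No pair of neighbouring groups in the order of Cav1 levels passed the test.

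**Figure D1:**
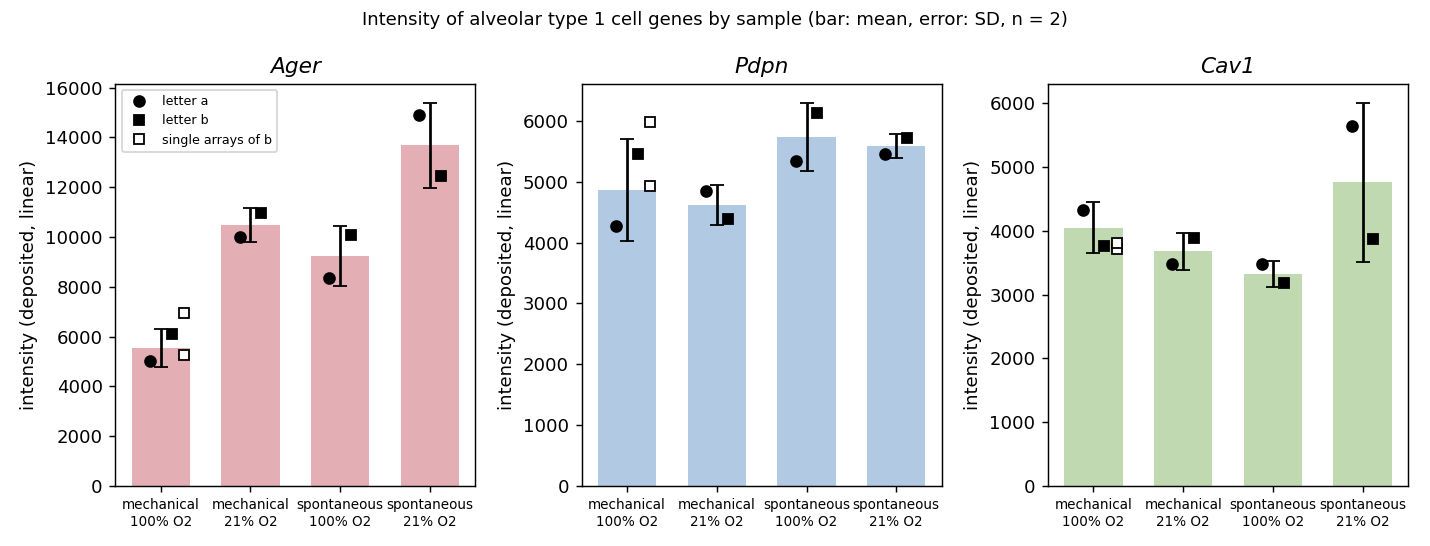
Deposited intensity (linear, y axis from 0) of Ager, Pdpn and Cav1 in the 4 groups. Bars are group means with SD (n = 2), filled points are the samples and open squares the single arrays of mechanical 100% letter b; Ager was lowest in both mechanical 100% samples (4999 and 6094), while the samples of Pdpn lay between 4270 and 6134 and those of Cav1 between 3187 and 5645.

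The comparisons below come from 1 limma model over the 8 samples, fitted to log2(intensity + 40) of 5244 probe sets, with p-values adjusted over all of them by the Benjamini-Hochberg method and a call at an adjusted p under 0.05. All 3 genes passed the filter on low signal, which left the dimmest 40% of probe sets untested. A change is a log2 difference with its standard error, and an interval is the 95% confidence interval of the model.

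The first comparison asked what mechanical ventilation changed against spontaneous breathing, averaged over oxygen. Ager fell and the other 2 genes did not pass, so 1 of 3 members was called lower, where 4.25% of all probe sets tested were. The log2 change of Ager was -0.56 ± 0.11, a ratio of 0.679, with a limma adjusted p of 0.024. Its 4 mechanical samples lay between 4999 and 10954 and its 4 spontaneous samples between 8370 and 14892, so the 2 ways of breathing overlapped. Pdpn changed by -0.26 ± 0.10 on the log2 scale (interval -0.50 to -0.02, limma adjusted p = 0.15). For Cav1 the change was -0.03 ± 0.13 (interval -0.33 to 0.26, adjusted p = 0.90). Ager no longer passed after quantile normalization (-0.30, adjusted p = 0.075), after scaling to a common 99th percentile (-0.15, adjusted p = 0.14), or without mechanical 100% letter a (-0.49, adjusted p = 0.083), mechanical 21% letter a (-0.53, 0.088) or letter b (-0.59, 0.073), spontaneous 100% letter b (-0.49, 0.068) or spontaneous 21% letter a (-0.50, 0.063). It also missed the threshold with no filter on low signal (adjusted p = 0.090), with no variance trend (0.054) and with only array A of mechanical 100% letter b (-0.51, 0.065).

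Within 100% oxygen, mechanical ventilation lowered Ager, with a log2 change of -0.74 ± 0.15, a ratio of 0.600 (limma adjusted p = 0.013), in a comparison where 10.4% of all probe sets were called lower. The mechanical samples (4999 and 6094) did not overlap the spontaneous samples (8370 and 10084). Within 21% oxygen its change was -0.38 ± 0.15 and missed the threshold (adjusted p = 0.14), with 9983 and 10954 in the mechanical samples, against 14892 and 12468 in the spontaneous samples. Within 21% oxygen 7.49% of all probe sets were called lower. Group and lot line cannot be told apart at 21% oxygen, since the mechanical arrays lack that line and the spontaneous arrays carry it. Pdpn changed by -0.25 ± 0.15 at 100% oxygen and -0.27 ± 0.15 at 21% oxygen, with an adjusted p of 0.25 for each. Cav1 changed by 0.28 ± 0.18 at 100% oxygen (adjusted p = 0.30) and by -0.34 ± 0.18 at 21% oxygen (adjusted p = 0.24). In the arrays without the lot line alone, Ager at 100% oxygen changed by -0.40 (adjusted p = 0.23), with a single mechanical array. This change of Ager was -0.16 (adjusted p = 0.26) under the common 99th percentile, -0.40 (adjusted p = 0.17) with the lot line as a block, and missed the threshold with no filter on low signal (adjusted p = 0.058). Here and below, the fit with the lot line block entered both arrays of mechanical 100% letter b as separate samples. Quantile normalization (-0.46) and cyclic loess (-0.39) kept the call. The call at 100% oxygen was also lost without mechanical 100% letter a (-0.60, adjusted p = 0.094) and without spontaneous 100% letter b (-0.60, adjusted p = 0.069).

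The second comparison asked how 100% oxygen differed from 21% oxygen over both ways of breathing. Ager fell here too, while Pdpn and Cav1 did not pass, so 1 of 3 members was called lower, beside 12.2% of all probe sets. The log2 change of Ager was -0.75 ± 0.11, a ratio of 0.597, with a limma adjusted p of 0.0038. The 4 samples at 100% oxygen lay between 4999 and 10084 and the 4 at 21% oxygen between 9983 and 14892, which overlapped by 1 sample on each side. Pdpn changed by 0.05 ± 0.10 (interval -0.19 to 0.28, adjusted p = 0.77); its interval does not reach the change of Ager. Cav1 changed by -0.18 ± 0.13 (interval -0.47 to 0.12, adjusted p = 0.35). Ager kept its sign and its call in each of the 20 alternative settings run for this comparison, with changes between -0.81 and -0.31.

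Within mechanically ventilated rats, 100% oxygen lowered Ager, with a log2 change of -0.92 ± 0.15, a ratio of 0.527 (limma adjusted p = 0.0037), where 14.4% of probe sets were called lower. Within spontaneously breathing rats the change was -0.57 ± 0.15, a ratio of 0.675 (adjusted p = 0.041), where 9.71% were called lower. Both spontaneous 21% arrays carry the lot line and both spontaneous 100% arrays lack it, so group and lot line cannot be told apart there. The spontaneous call lay close to the threshold and was lost in 16 of 21 alternative settings, with changes between -1.0 and -0.30 and adjusted p up to 0.18. The mechanical call was lost in 1 of 22, within the arrays without the lot line (-0.59, adjusted p = 0.089), with changes between -1.06 and -0.32. Its size was -0.57 after cyclic loess, -0.59 with the lot line as a block and -0.32 under the common 99th percentile. Pdpn changed by 0.06 ± 0.15 in mechanically ventilated rats (adjusted p = 0.77) and by 0.03 ± 0.15 in spontaneously breathing rats (adjusted p = 0.89). Cav1 changed by 0.13 ± 0.18 in mechanically ventilated rats (adjusted p = 0.59) and by -0.49 ± 0.18 in spontaneously breathing rats (adjusted p = 0.10). That last value rests on the pair of spontaneous 21% samples: it was -0.76 (adjusted p = 0.029) without letter b and -0.22 (adjusted p = 0.55) without letter a.

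With both factors changed at once, mechanical 100% against spontaneous 21%, Ager fell by 1.30 on the log2 scale (SE 0.15), a ratio of 0.405, with a limma adjusted p of 0.0021. It was the 1 of 3 members called lower, beside 7.02% of all probe sets, and it kept its call in each of the 22 alternative settings, with changes between -1.44 and -0.46. Pdpn (-0.21 ± 0.15, adjusted p = 0.38) and Cav1 (-0.21 ± 0.18, adjusted p = 0.49) missed the threshold with the same size of change. Mechanical 21% against spontaneous 100%, the pair in which a single factor was changed on each side, gave no call among the 3 genes, beside 16.3% of all probe sets called in either direction. The changes were 0.19 ± 0.15 for Ager, -0.31 ± 0.15 for Pdpn and 0.14 ± 0.18 for Cav1 (adjusted p = 0.45, 0.19 and 0.64).

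The interaction asked whether the ventilation change differed between oxygen levels, and none of the 3 genes passed, in a contrast that called 27.4% of all probe sets. The interaction also sets arrays with the lot line against arrays without it, apart from 1 array of mechanical 100% letter b. For Ager it was -0.36 ± 0.22 (interval -0.86 to 0.15, limma adjusted p = 0.25), so the ventilation change of Ager was not shown to differ between 100% and 21% oxygen. With the lot line as a block the value was 0.42 (adjusted p = 0.57), of opposite sign. For Pdpn it was 0.03 ± 0.21 (interval -0.45 to 0.50, adjusted p = 0.94). Cav1 had the largest interaction of the 3, 0.62 ± 0.26 (interval 0.03 to 1.21, adjusted p = 0.11), and it passed without spontaneous 21% letter b (0.89, adjusted p = 0.021).

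**Figure D2:**
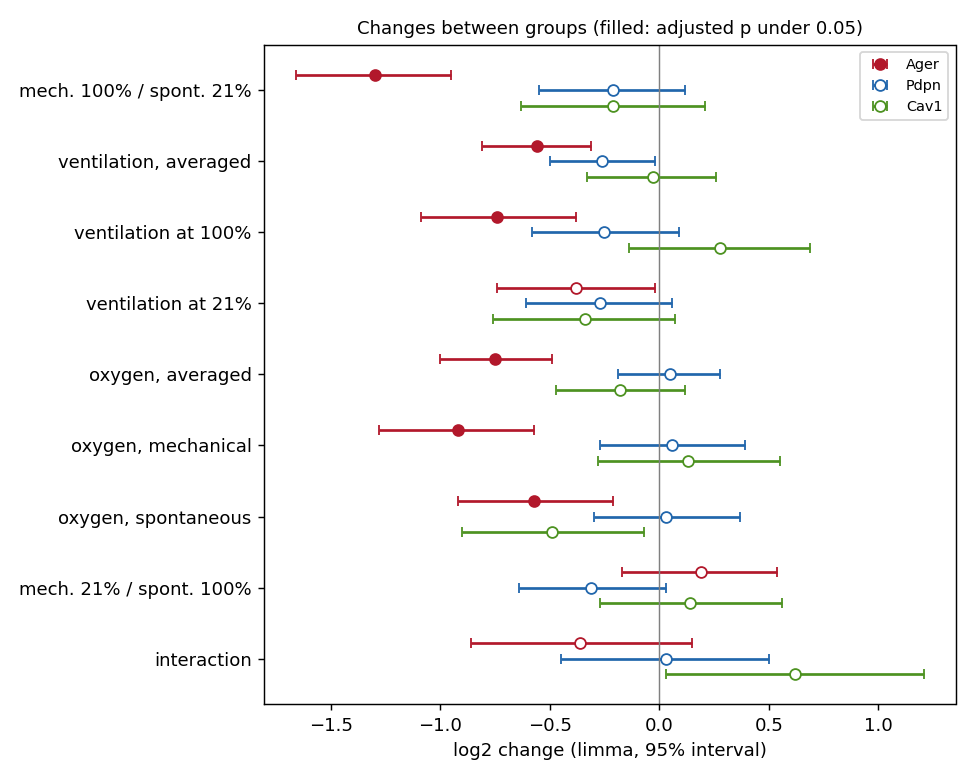
Log2 change (x axis, with the 95% interval of limma) of Ager, Pdpn and Cav1 in the 9 comparisons, filled where the adjusted p was under 0.05. Ager has the filled points, from -1.30 for both factors to -0.56 for ventilation averaged over oxygen, while no point of Pdpn or Cav1 is filled.

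How far Ager fell depended on the scale. The median of all tested probe sets moved by 0.04 for ventilation averaged over oxygen, by 0.05 for oxygen averaged over breathing and by 0.10 for both factors, and relative to it Ager changed by -0.60, -0.79 and -1.41. Quantile normalization, which gives every array the same brightest values, brought the Ager changes to -0.30, -0.49 and -0.79. Scaling every array to a common 99th percentile brought them to -0.15, -0.31 and -0.46, and moved the median of all probe sets by 0.42, 0.45 and 0.89. Under that scaling Pdpn and Cav1 rose by 0.63 each for both factors together (adjusted p = 0.0054 and 0.014), while their changes as deposited were -0.21 each. That scaling lifted all probe sets, and at 0.63 both genes still lay below the median of 0.89, as they lay below the median of 0.10 as deposited.

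As a share of its array's own 99th percentile, Ager stood at 67.9%, 83.2% and 73.7% on the 3 mechanical 100% arrays, at 89.5% and 92.1% on the mechanical 21% arrays, at 84.3% and 78.8% on the spontaneous 100% arrays, and at 102.4% and 98.3% on the spontaneous 21% arrays. The 5 arrays at 100% oxygen thus lay at or below 84.3%, and the 4 arrays at 21% oxygen at or above 89.5%. By rank Ager was the probe set in place 434, 222 and 368 from the top on the mechanical 100% arrays, and in place 73 and 94 on the spontaneous 21% arrays. The mechanical 21% arrays gave it places 145 and 119, and the spontaneous 100% arrays places 193 and 205.

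**Figure D3:**
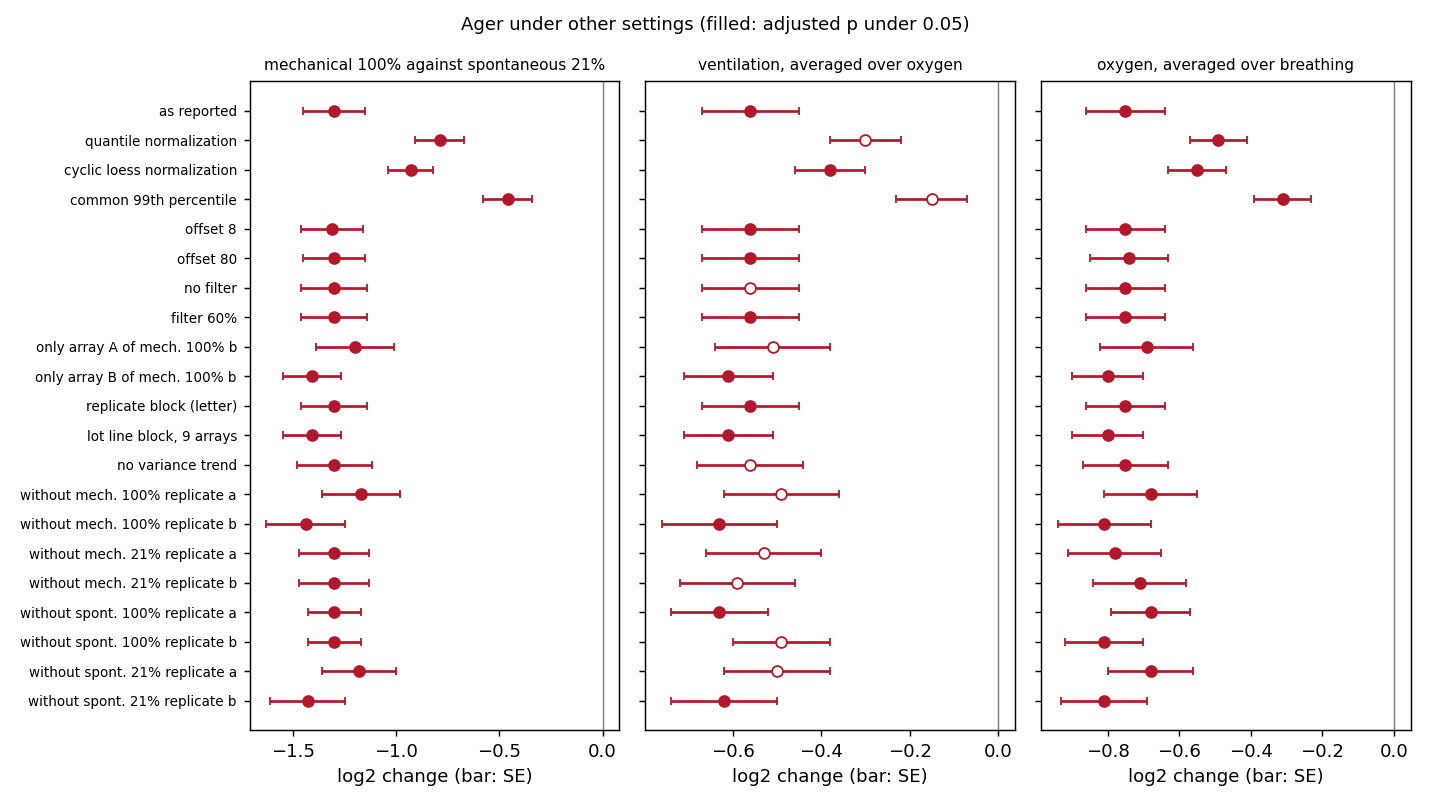
Log2 change of Ager (x axis, bars are the SE of limma) under each setting (rows) in 3 comparisons, filled where the adjusted p was under 0.05. Every point lies below 0; the points stay filled for both factors and for oxygen, while open points appear for ventilation, where quantile normalization gave -0.30 and the common 99th percentile -0.15.

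Whether the members differed from each other was asked by an exact permutation test, two-sided, of the log2 difference between 2 members in 4 samples against 4, which allows 70 splits and a smallest p of 0.029. Over the 6 such tests, the oxygen change of Ager was the lower compared with that of Pdpn (log2 difference -0.79, exact p = 0.029, adjusted p = 0.17). The Ager minus Pdpn values at 100% oxygen lay between 0.15 and 0.71, all below those at 21% oxygen, between 1.03 and 1.44. After adjustment no difference between members passed, and the other 5 had an exact p between 0.17 and 0.43. Over 6 tests, a pair that alone reaches the smallest p of 0.029 gets an adjusted p of 0.17. The adjusted test therefore could not pass Ager against Pdpn alone, and it does not decide whether their oxygen changes differ. For ventilation the difference between Ager and Cav1 was -0.53 (exact p = 0.23) and that between Pdpn and Cav1 -0.23 (exact p = 0.37).

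Over the 8 samples the 3 genes followed each other weakly, as a description over samples that share arrays and groups: Pearson r was 0.41 for Ager with Pdpn, 0.25 for Ager with Cav1 and -0.21 for Pdpn with Cav1. Among 3180 other genes, those most like Ager were RT1-CE12 (0.994), a class I antigen gene, Apoe (0.994), which encodes the lipid carrier apolipoprotein E, Eef2 (0.993), an elongation factor of translation, and the ribosomal protein genes Rplp0 (0.992) and Rpl23 (0.990). They were chosen for following Ager, so their log2 changes with oxygen averaged over breathing, -0.66, -0.80, -0.78, -1.30 and -0.57 in that order, are a description that the choice itself sets. Rplp0 measured 3288 and 4921 in mechanical 100%, 10520 and 12814 in mechanical 21%, 6426 and 10197 in spontaneous 100%, and 19233 and 14957 in spontaneous 21%. After quantile normalization the change of Rpl23 was -0.14, against -0.49 for Ager. Whether Ager and these genes share a cause was not tested.

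The genes most like Pdpn were Esr2 (r = 0.940), an oestrogen receptor, Il15 (0.914), a cytokine of lymphocytes, Pi4kb (0.901), a phosphoinositide kinase, Calca (0.890), the calcitonin and CGRP gene, and Grk6 (0.887), a receptor kinase. Pi4kb, for instance, measured 2005 and 2413 in mechanical 100%, 2345 and 2293 in mechanical 21%, 2570 and 3144 in spontaneous 100%, and 2565 and 2576 in spontaneous 21%. The genes most like Cav1 were Pecam1 (r = 0.943), an adhesion molecule of endothelial junctions, and Myrf (0.938), Pou2f3 (0.937), Ppp3r1 (0.936) and Gnai1 (0.935). Myrf and Pou2f3 are transcription factors, Ppp3r1 the regulatory subunit of calcineurin and Gnai1 an inhibitory G protein subunit. Pecam1 measured 4503 and 3568 in mechanical 100%, 3235 and 4001 in mechanical 21%, 3069 and 2944 in spontaneous 100%, and 6198 and 4696 in spontaneous 21%, with spontaneous 21% letter a the highest sample, as for Cav1.

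**Figure D4:**
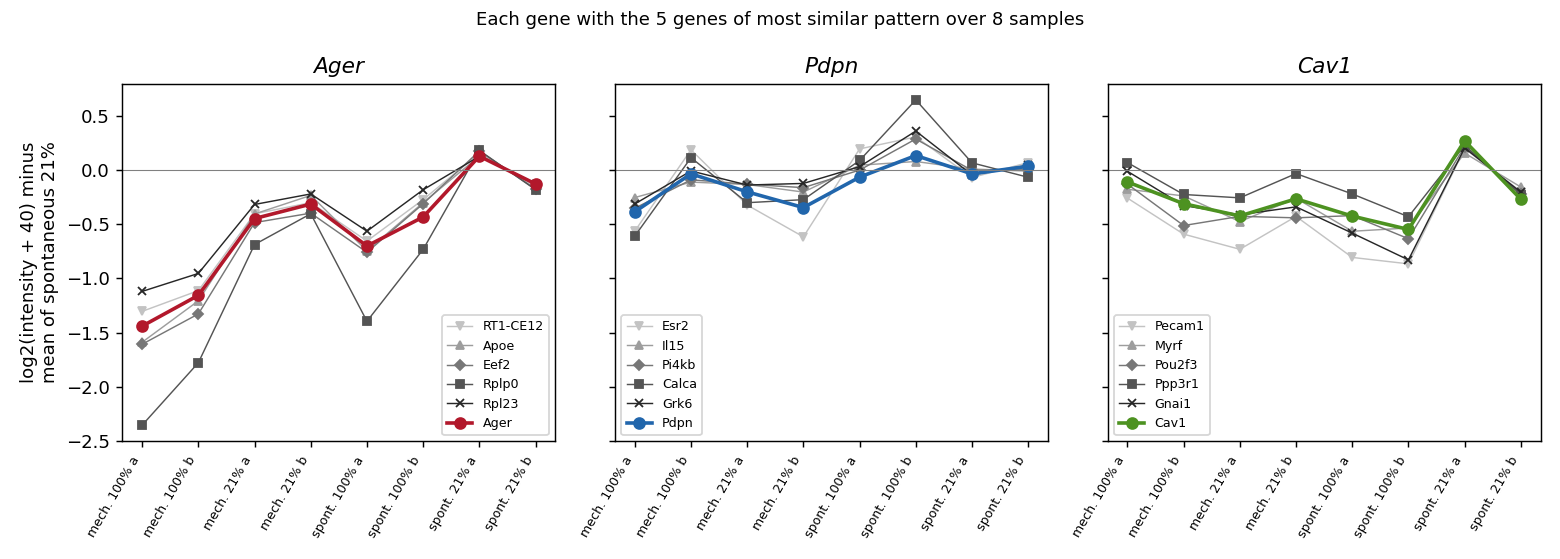
Log2(intensity + 40) of each gene in the 8 samples, minus its mean in spontaneous 21% (y axis), with the 5 genes most like it in grey. Ager and its 5 genes are lowest in mechanical 100%, Pdpn has low samples at mechanical 100% a and mechanical 21% b, and Cav1 and its 5 genes peak at spontaneous 21% a.

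Other genes reported for type 1 cells were called about as often as probe sets in general with oxygen averaged over breathing. Of 36 listed, 19 were on the array and 16 were tested; none of them was tested against Ager. For ventilation averaged over oxygen, 2 rose and none fell, with a median log2 change of 0.09, where 4.84% of all probe sets rose, 4.25% fell and the median was 0.043. These were Icam1, the leukocyte adhesion molecule that type 1 cells carry on their surface (0.55 ± 0.08, limma adjusted p = 0.0055; 1.25 at 100% oxygen and -0.15 at 21% oxygen), and Klf6, an injury-induced transcription factor (0.84 ± 0.17, adjusted p = 0.027). For oxygen averaged over breathing, 2 rose and 2 fell, with a median of -0.01, where 12.8% of all probe sets rose, 12.2% fell and the median was 0.046, so these counts lie near the background. Klf6 (1.09 ± 0.17, adjusted p = 0.0047) and Vegfa, the vascular growth factor (0.61 ± 0.10, adjusted p = 0.0061; 1.06 in mechanical ventilation and 0.17 in spontaneous breathing), rose. Sec14l3, a lipid transfer protein (-0.53 ± 0.10, adjusted p = 0.011), and Gsta1, a glutathione transferase (-0.31 ± 0.08, adjusted p = 0.034), fell, the first losing its call after quantile normalization and the second after cyclic loess. Under the common 99th percentile they stood at -0.09 and 0.13. Sec14l3 measured 4801 and 6017 in mechanical 100%, 6261 and 7595 in mechanical 21%, 6289 and 6108 in spontaneous 100%, and 9655 and 10531 in spontaneous 21%, the same order of group means as Ager. Within spontaneous breathing 4 of the 16 fell with oxygen and none rose, where 9.71% of all probe sets fell. Within mechanical ventilation 6 rose and 1 fell with oxygen (median 0.17, beside 0.137 for all probe sets), where 14.4% of all fell. After quantile normalization 7 rose and 1 fell there, where 816 of all 5244 probe sets rose and 864 fell. Within 21% oxygen 4 fell with ventilation and none rose, where 7.49% of all fell.

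Klf6 measured 4158 and 3953 in mechanical 100%, 1463 and 1214 in mechanical 21%, 1665 and 1536 in spontaneous 100%, and 765 and 1378 in spontaneous 21%. Its highest samples were thus the mechanical 100% samples in which Ager was lowest. Aqp5, the water channel of the apical type 1 membrane, was chosen after its values were seen, as a further defining marker. It measured 1322 and 1505 in mechanical 100%, 1386 and 1361 in mechanical 21%, 989 and 1004 in spontaneous 100%, and 1152 and 1363 in spontaneous 21%. Its changes missed the threshold for ventilation averaged over oxygen (0.31 ± 0.10, limma adjusted p = 0.085) and for oxygen averaged over breathing (-0.14 ± 0.10, adjusted p = 0.31). Within 100% oxygen Aqp5 was called higher with ventilation (0.48 ± 0.14, adjusted p = 0.033), where Ager was called lower (-0.74). That comparison called 1413 of all probe sets in either direction. At 21% oxygen the change of Aqp5 was 0.13 ± 0.14 (adjusted p = 0.57), and its interaction was not called (0.36 ± 0.19, adjusted p = 0.2). Aqp5 was not tested against Ager. The summed intensity of the 19 genes was 45276 and 44467 in mechanical 100%, 38410 and 39638 in mechanical 21%, 39288 and 38827 in spontaneous 100%, and 44721 and 48552 in spontaneous 21%. That sum did not share the low level of Ager in mechanical 100%, but it mixes genes that moved in opposite directions. Icam1, at 5350 and 4804, and Klf6 were highest in mechanical 100%, while Sec14l3 was lowest there. The sum is thus no measure of type 1 cell content.

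Around Ager, of 13 tested ligands and signalling partners of RAGE, from 15 on the array, 2 rose and 1 fell with ventilation, where 4.84% of all probe sets rose and 4.25% fell. With 100% oxygen 3 rose and 2 fell, where 12.8% rose and 12.2% fell. Ttr, which encodes the transport protein transthyretin, a RAGE ligand when aggregated, rose with ventilation averaged over oxygen (1.02 ± 0.17, limma adjusted p = 0.014), with a change of 0.02 at 100% oxygen (adjusted p = 0.97) and of 2.02 at 21% oxygen. It rose with oxygen by 1.75 ± 0.17 (adjusted p = 0.00062). Nfkb1, a subunit of the transcription factor activated downstream of RAGE, rose with ventilation (0.52 ± 0.10, adjusted p = 0.026), by 1.01 at 100% oxygen, with a change of 0.03 at 21% oxygen. Adam17, one of the proteases reported to shed membrane receptors, RAGE among them, rose with oxygen (0.70 ± 0.15, adjusted p = 0.014). It measured 2009 and 1320 in mechanical 100%, 737 and 800 in mechanical 21%, 1109 and 1250 in spontaneous 100%, and 1034 and 809 in spontaneous 21%. App, the amyloid precursor, rose with oxygen (0.48 ± 0.08, adjusted p = 0.0073) and fell with ventilation (-0.38 ± 0.08, adjusted p = 0.035), the fall being lost after quantile normalization (-0.16, adjusted p = 0.19). The calprotectin subunit gene S100a9 fell with oxygen (-0.39 ± 0.10, adjusted p = 0.023), and this was lost after quantile normalization (-0.07, adjusted p = 0.36).

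Of 13 tested partners of podoplanin, 1 rose and 2 fell with ventilation (4.84% and 4.25% of all probe sets), and 2 rose and 2 fell with oxygen (12.8% and 12.2% of all probe sets), near the background for oxygen. Ezr, the ezrin gene, rose with ventilation (0.45 ± 0.11, limma adjusted p = 0.042; 0.91 at 100% oxygen and -0.02 at 21% oxygen), with 4850 and 4619 in mechanical 100%, 3510 and 3401 in mechanical 21%, 2892 and 2154 in spontaneous 100%, and 3315 and 3709 in spontaneous 21%. Itgb1, the integrin beta 1 chain, fell (-0.53 ± 0.08, adjusted p = 0.010) and lost its call under the common 99th percentile (-0.12, adjusted p = 0.30). Cd9, a tetraspanin that binds podoplanin, fell with ventilation and with oxygen (-0.38 ± 0.09 and -0.32 ± 0.09, adjusted p = 0.035 and 0.031), and its sign turned after quantile normalization (0.01 and 0.11).

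Of 13 tested genes of the caveola coat and caveolin partners, none rose and 1 fell with ventilation (4.84% and 4.25% of all probe sets), and 2 rose and 1 fell with oxygen (12.8% and 12.2%), so these counts too lie near the background. The gene that fell with ventilation was Aqp1, the water channel of capillary endothelium (-0.37 ± 0.09, limma adjusted p = 0.046), which lost its call after quantile normalization (-0.22, adjusted p = 0.11) and after cyclic loess (-0.24, 0.13). Pacsin2, a membrane-bending protein of caveolae, rose with oxygen (1.09 ± 0.21, adjusted p = 0.011; 2.06 in mechanical ventilation and 0.12 in spontaneous breathing). Flot1, a flotillin of membrane domains, fell with oxygen (-0.49 ± 0.13, adjusted p = 0.031) and lost its call under the common 99th percentile (-0.06, adjusted p = 0.76).

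Because Cav1 is also an endothelial gene, endothelial markers are given beside it. In spontaneously breathing rats 100% oxygen lowered 8 of 13 tested endothelial genes and raised none, with a median log2 change of -0.75, beside 9.71% of all probe sets called lower and a median of -0.051. The list's summed intensity was 27638 and 26132 in mechanical 100%, 21539 and 22053 in mechanical 21%, 20656 and 20501 in spontaneous 100%, and 33920 and 31357 in spontaneous 21%. Car4, a carbonic anhydrase of capillary endothelium, changed by -1.60 ± 0.12 (limma adjusted p = 0.00026), Kdr, a receptor for vascular growth factor, by -1.34 ± 0.22 (adjusted p = 0.0066) and Pecam1 by -0.84 ± 0.18 (adjusted p = 0.019), against -0.49 ± 0.18 for Cav1 (adjusted p = 0.10). With the lot line as a block, 2 of the 13 were called lower (median -0.64), where 57 of all 5244 probe sets were. The interaction was positive and called for 9 of 13, with a median of 0.99, beside 16.9% of all probe sets and a median of 0.154 among them. With that block it was called higher for 1 of 13 (median 0.77), where 100 of all probe sets were. Group and lot line cannot be told apart for spontaneous 100% against spontaneous 21%, since each has only one kind of array. For the interaction, only 1 array of mechanical 100% letter b separates them. Of 3 tested lymphatic endothelial genes, 1 fell with ventilation, and of 4 tested genes of the mesothelial list 3 rose, where 4.25% of all probe sets fell and 4.84% rose. The 3 that rose were keratin genes, which are not particular to mesothelium.

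Part of the type 2 cell genes fell beside Ager. Of 11 tested, 1 rose and 6 fell with oxygen averaged over breathing, with a median of -0.31, and 1 rose and 3 fell with ventilation. Among all probe sets 12.8% rose and 12.2% fell with oxygen, and 4.84% rose and 4.25% fell with ventilation. After quantile normalization 1 rose and 4 fell with oxygen (median -0.06), where 546 of all 5244 probe sets rose and 699 fell. Under the common 99th percentile 4 rose and 4 fell with oxygen (median 0.13). Of all probe sets, 2292 then rose and 138 fell (median 0.45). Under that last scaling 5 rose and 2 fell with ventilation, where 1807 of all rose and 75 fell. As deposited, 2 of the 11 rose and 4 fell with ventilation within 100% oxygen, where 10.4% of all probe sets fell. In that comparison 1413 of all 5244 were called in either direction. For both factors together 4 fell and none rose, where 7.02% of all fell. Among those that fell with oxygen, Sftpb, a surfactant protein, changed by -1.01 ± 0.17 (limma adjusted p = 0.0066). Sftpc changed by -0.92 ± 0.17 (adjusted p = 0.0091) and the lysozyme gene Lyz2 by -0.90 ± 0.15 (adjusted p = 0.0054). The list's summed intensity was 50638 and 53380 in mechanical 100%, 75674 and 80031 in mechanical 21%, 62615 and 76716 in spontaneous 100%, and 99152 and 84760 in spontaneous 21%, the same order of groups as for Ager. The brightest genes weigh most in that sum. Markers of tissues outside the alveolus also differed between groups. T lymphocyte markers summed to 33783 and 35763 in mechanical 21%, against 2919 to 4325 in the other samples. Skeletal muscle markers summed to 29967 and 29621 in spontaneous 100%, against 3653 to 9488 in the other samples, with 3 of 14 at or below 0 in both mechanical 100% samples, and heart muscle markers summed to 35342 and 33291, against 13849 to 19825. Fat markers summed to 23232 and 24235 in mechanical 21%, against 10265 to 14645. Their part in the changes of Ager, Pdpn and Cav1 was not tested.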

How the data were processed

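The intensity values are those the authors deposited, per the labels from rat lung RNA. The sources used here do not name the software, scanner or labelling. Control probe sets (59) were left out of 8799, values below 0 were set to 0, log2(value + 40) was taken, and the dimmest 40% of the remaining 8740 were not tested, which left 5244. A group-means model over 8 samples, with 4 residual degrees of freedom, was fitted in R 4.3.3 with limma 3.58.1 (eBayes with a variance trend) and its p-values adjusted by Benjamini-Hochberg. Exact tests used scipy 1.17.1 in Python 3.11.15, and figures matplotlib 3.10.9. The fit was tested on simulated data.

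The members, the gene lists and the tests were chosen with earlier results of these data known. Genes were named by rule: the 3 members, up to 4 genes of each list with the smallest p for ventilation and up to 4 for oxygen, and the 5 genes most correlated with each member. Aqp5 falls outside that rule. A gene was represented by its brightest probe set with a single symbol. The array's annotation, which can be old, named a single gene for 7006 probe sets, more than 1 for 308 and no gene for 1426, and 6985 were matched to the RefSeq gene table. Promoter windows came from RefSeq. The scaling to a common 99th percentile, the mechanical 21% against spontaneous 100% pair, the tests between members and the neighbouring genes were added after seeing the data. Other settings changed 1 choice at a time: normalization, offset, filter, use of the 2 arrays of 1 sample, a block, the variance trend, and each sample left out. The lot line block is an exception, since it also entered the 2 arrays of mechanical 100% letter b as separate samples. That fit thus held 9 arrays, of which 2 are not independent. The number of arrays limits the precision. The result of 1 listed gene is not reported here.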

Additional observations from a re-analysis of the deposited data

Results flagged for a closer look

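Limma's interaction term was called for 12 of the genes named beside the members, and for none of Ager, Pdpn and Cav1. The 12 were named for a small p in other comparisons or for likeness to a member. Their number is thus not comparable with the 27.4% called among all probe sets. The interaction compares the change with ventilation between 100% and 21% oxygen. Apart from 1 array of mechanical 100% letter b, it also sets arrays with the lot line against arrays without it. Group and lot line can thus hardly be told apart here. Among endothelial genes the interaction was 2.57 for Thbd, the thrombin receptor thrombomodulin (adjusted p = 0.0018), which changed with ventilation by 1.01 at 100% oxygen and by -1.55 at 21% oxygen. It was 1.44 for Kdr (adjusted p = 0.011), 0.99 for Pecam1 (0.023) and 0.71 for Car4 (0.019). Among the type 1 cell genes named here it was 1.40 for Icam1 (adjusted p = 0.00079), 0.89 for Vegfa (0.015) and -0.61 for Gsta1 (0.031). Of all 16 tested genes of that list, the interaction was called higher for 5 and lower for 1, where 27.4% of all probe sets were called in either direction. With the lot line as a block it was called for 2 of the 16, both higher. Among partners of RAGE, podoplanin and caveolae it was -2.01 for Ttr (adjusted p = 0.0045), 0.98 for Nfkb1 (0.011), 0.93 for Ezr (0.015) and 1.94 for Pacsin2 (0.013). For Myrf, one of the genes most like Cav1, it was 0.71 (adjusted p = 0.043). With the lot line as a block none of the 12 was called, with an adjusted p of at least 0.065 for each, while their signs stayed as they were. Over all 5244 tested probe sets the interaction was called for 1439 as reported. With that block it was called higher for 100 and lower for 59.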

How the results depend on the processing

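Values are log2 changes from limma as settings changed 1 at a time, in brackets the adjusted p where given, and the cause of each move was not tested unless the setting itself shows it. Only the lot line block changed more, since it also entered both arrays of mechanical 100% letter b separately. Ager kept its sign and call in all settings run for oxygen averaged over breathing and for both factors together. After quantile normalization Ager was -0.30 for ventilation averaged over oxygen and -0.33 for oxygen in spontaneous breathing, neither called. After cyclic loess Cav1 turned to 0.03 for averaged ventilation and Pdpn to 0.01 for both factors. With a common 99th percentile, which called 1882 probe sets for averaged ventilation against 477 as reported, Ager lost its call for averaged ventilation (-0.15), ventilation at 100% oxygen (-0.16) and oxygen in spontaneous breathing (-0.30). Pdpn then stood at 0.15 for averaged ventilation, 0.33 for ventilation at 100% oxygen, 0.48 for averaged oxygen, 0.67 for oxygen in mechanical ventilation and 0.63 for both factors, the last 3 called. Cav1 stood at 0.37, 0.85, 0.26, 0.74 and 0.63 in those 5 comparisons and at 0.96 for the interaction, all called but the first and the third. With no filter, so more tests to adjust for, Ager missed the threshold at -0.56 for averaged ventilation, -0.74 for ventilation at 100% oxygen and -0.57 for oxygen in spontaneous breathing. With only array A of mechanical 100% letter b it did so at -0.51 and -0.57, and with no variance trend at -0.56 and -0.57, for averaged ventilation and oxygen in spontaneous breathing, and with only the groups compared at -0.57 for the second of these. With only array B, Pdpn turned to -0.01 for oxygen in mechanical ventilation and -0.04 for the interaction. With the lot line as a block Ager was not called for ventilation at 100% oxygen (-0.40) or oxygen in spontaneous breathing (-1.0) and turned to 0.42 for the interaction, while Pdpn turned to 0.06 and -0.35 in the first 2 of these. Within the arrays without the lot line Ager was not called for ventilation at 100% oxygen (-0.40) or oxygen in mechanical ventilation (-0.59), and Pdpn turned to 0.06 for the first. With the letter as a replicate block, Ager missed the threshold for oxygen in spontaneous breathing (-0.57, adjusted p = 0.056) and no other call of the 3 genes changed. The differences between letters a and b, over the tested probe sets, correlated between -0.13 and 0.07 across pairs of groups, so no broad shift was shared by letter. An effect of the letter on single genes cannot be read from this. Leaving out each sample in turn, Ager ranged between -0.63 and -0.49 for averaged ventilation and between -0.87 and -0.60 for ventilation within 100% oxygen. Its range was -0.70 to -0.43 for oxygen in spontaneous breathing, where it lost its call without any one sample. Cav1 ranged between -0.17 and 0.10 for averaged ventilation, -0.76 and -0.22 for oxygen in spontaneous breathing, 0.35 and 0.89 for the interaction, and -0.48 and 0.06 for both factors. Pdpn ranged between -0.04 and 0.13 for averaged oxygen, -0.11 and 0.23 for oxygen in mechanical ventilation, -0.07 and 0.13 for oxygen in spontaneous breathing, and -0.15 and 0.20 for the interaction. A group left with 1 sample was assumed to vary like the others. Offsets of 8 and 80 and a filter of 60% changed no call. The choice among probe sets was not run, since each gene had 1, and the fit of only the groups compared applies to pairs of groups alone.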

Other observations

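Among the 4 protein-coding genes on each side of a member in the RefSeq order, few were measured. Notch4, a Notch receptor of endothelium near Ager on chromosome 20, changed by 0.02 ± 0.26 with ventilation and by -0.10 ± 0.26 with 100% oxygen (limma adjusted p = 0.98 and 0.81). It measured 273 and 206 in mechanical 100%, 187 and 203 in mechanical 21%, 199 and 156 in spontaneous 100%, and 404 and 154 in spontaneous 21%, so it did not share the order of Ager. Near Cav1 on chromosome 4, Capza2, a capping protein of actin filaments, changed by 0.23 ± 0.16 with ventilation and by 0.22 ± 0.16 with oxygen (limma adjusted p = 0.40 and 0.34). Tfec, a transcription factor of macrophages, changed by 0.40 ± 0.15 with oxygen (limma adjusted p = 0.089) and Met, the receptor for hepatocyte growth factor, by 0.14 ± 0.28 (0.76). The neighbours of Pdpn on the array, Kazn and Prdm2, were too dim to be tested.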
